A study of Mus musculus with 8 samples.

Results

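A set of 10 genes of drug metabolism was followed in mouse liver in which Ctcf was or was not deleted by an albumin-driven Cre. They were chosen by symbol as the main drug-metabolizing cytochromes P450 outside the Cyp2a to Cyp2d clusters, with their electron donor and a receptor. The set was Cyp3a11, Cyp3a13, Cyp3a16, Cyp3a25, Cyp3a41a, Cyp3a59, Cyp1a2, Cyp2e1, Por and Ahr, 10 of the 52636 genes in the files, and each matched 1 gene. In the files they are ENSMUSG00000056035, ENSMUSG00000029727, ENSMUSG00000038656, ENSMUSG00000029630, ENSMUSG00000075551, ENSMUSG00000061292, ENSMUSG00000032310, ENSMUSG00000025479, ENSMUSG00000005514 and ENSMUSG00000019256, in the same order. All 10 passed the filter on low counts, as did 15562 genes in all, so that Cyp3a16 and Cyp3a41a were tested at levels near 1 CPM or below (CPM, counts scaled to library totals times TMM factors, which correct for differences in RNA composition).

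The liver samples came from C57BL/6 mice of 8 weeks. Both groups carried floxed Ctcf alleles on both chromosomes. The 4 WT samples had no Cre, and the 4 cKO samples had Cre driven by the promoter of albumin, a hepatocyte gene. No group had Cre without floxed Ctcf, and an effect of Cre and an effect of the deletion cannot be told apart. Whether each sample was a separate mouse is not stated, so the tests weigh differences against a spread that may be technical. Totals ran from 43.9 M to 57.3 M counts per library, and a count of 0 allowed up to 0.0511 to 0.0708 CPM, a limit that covers counting error only. Ctcf averaged 16.5 ± 0.41 CPM over the WT libraries and 12.2 ± 0.95 CPM over the cKO libraries (all ± values are SDs of n = 4) and was lower in every cKO library (log2 change -0.44, SE 0.08, edgeR adjusted p = 0.00177). Limma on log2(TPM + 1) gave -0.15 for Ctcf with an adjusted p of 0.161. That fit moved the median gene upward by 0.15 on the log2 scale, here and wherever it is used below.

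Cytochromes P450 of the endoplasmic reticulum oxidize drugs, steroids and other lipophilic compounds, with electrons that the reductase encoded by Por passes to them from NADPH. In liver most of them lie in hepatocytes near the central vein. The receptor AHR induces Cyp1a genes when it binds planar aromatic ligands, while PXR and CAR, encoded by Nr1i2 and Nr1i3, induce Cyp3a and Cyp2b genes. In mice several Cyp3a genes differ between the sexes or with age.

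The Cyp3a genes form a cluster on chromosome 5, with Cyp3a13 on the same chromosome but outside it. In GRCm38, the assembly also called mm10, Cyp3a16, Cyp3a41a, Cyp3a11, Cyp3a25 and Cyp3a59 started and ended within 145436309 to 146114978, whereas Cyp3a13 lay at chr5:137892933-137925610. The sequences upstream of their starts are shown because they tell which of the 6 genes are near copies of each other there, and that Cyp3a13 is not. Each run is the 250 bases before the start listed by RefSeq (GRCm38.p6), with capitals for the letters TATAAA and for CAAAGTCCA, a core to which the hepatocyte factor HNF4 binds, searched on both strands, with no match overlapping another motif. They lie on the minus strand, except Cyp3a59 on the plus strand, at chr5:145879855-145880104 for Cyp3a11, chr5:145469724-145469973 for Cyp3a16, chr5:145720137-145720386 for Cyp3a41a, chr5:146009619-146009868 for Cyp3a25, chr5:146079008-146079257 for Cyp3a59 and chr5:137921620-137921869 for Cyp3a13.
Cyp3a11: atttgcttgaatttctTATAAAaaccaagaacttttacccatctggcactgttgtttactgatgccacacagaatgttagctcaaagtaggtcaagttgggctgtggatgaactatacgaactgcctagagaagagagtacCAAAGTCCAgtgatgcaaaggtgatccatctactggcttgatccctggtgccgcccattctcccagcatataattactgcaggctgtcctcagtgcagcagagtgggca
Cyp3a16: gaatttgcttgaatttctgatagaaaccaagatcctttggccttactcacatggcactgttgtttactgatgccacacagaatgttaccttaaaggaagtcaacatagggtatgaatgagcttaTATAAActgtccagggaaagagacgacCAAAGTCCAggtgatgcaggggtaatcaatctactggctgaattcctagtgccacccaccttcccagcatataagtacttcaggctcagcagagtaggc
Cyp3a41a: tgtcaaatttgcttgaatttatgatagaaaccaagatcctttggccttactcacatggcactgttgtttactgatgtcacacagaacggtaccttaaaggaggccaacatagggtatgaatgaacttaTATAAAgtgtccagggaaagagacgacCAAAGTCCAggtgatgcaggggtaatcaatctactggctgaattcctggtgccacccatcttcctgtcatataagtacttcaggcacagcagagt
Cyp3a25: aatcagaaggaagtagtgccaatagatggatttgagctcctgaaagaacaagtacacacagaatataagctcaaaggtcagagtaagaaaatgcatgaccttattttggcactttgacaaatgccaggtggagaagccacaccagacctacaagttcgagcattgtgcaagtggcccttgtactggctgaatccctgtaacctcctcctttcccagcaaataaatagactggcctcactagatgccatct
Cyp3a59: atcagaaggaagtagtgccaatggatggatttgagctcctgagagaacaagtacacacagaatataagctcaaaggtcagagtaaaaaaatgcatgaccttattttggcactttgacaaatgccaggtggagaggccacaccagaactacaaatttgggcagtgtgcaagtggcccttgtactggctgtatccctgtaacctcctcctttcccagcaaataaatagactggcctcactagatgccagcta
Cyp3a13: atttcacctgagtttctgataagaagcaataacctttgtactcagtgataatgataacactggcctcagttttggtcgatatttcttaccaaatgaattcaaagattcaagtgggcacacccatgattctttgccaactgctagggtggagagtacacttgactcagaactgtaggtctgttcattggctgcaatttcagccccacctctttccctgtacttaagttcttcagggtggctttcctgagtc

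The upstream sequences of Cyp3a25 and Cyp3a59 were identical at 95.6% of 249 aligned bases, and those of Cyp3a16 and Cyp3a41a at 93.9% of 246. Cyp3a11 shared 83.3% of its aligned bases with Cyp3a16 and 80.9% with Cyp3a41a. Cyp3a25 and Cyp3a59 had 58.7% to 66.1% against Cyp3a11, Cyp3a16 and Cyp3a41a. Cyp3a13 was at a like distance, with 59.1% to 64.4% against the other 5, and had no near copy among them. Its run lies inside the span that RefSeq gives for the gene, and so does the run of Por. For Cyp3a25 the first of 2 listed starts was used. The core CAAAGTCCA was found in the runs of Cyp3a11, Cyp3a16 and Cyp3a41a, at 109, 99 and 95 bases before the start, and in 0.384% of 32851 promoter sequences of the same length. TATAAA was found in the same 3 runs and in those of Cyp1a2 and Cyp2e1, and in 12.4% of all. It began 29 and 31 bases before the start for Cyp1a2 and Cyp2e1. For Cyp3a11, Cyp3a16 and Cyp3a41a it lay further off, at 234, 126 and 122 bases. The AHR core GCGTG matched 3 times in the run of Por and in 28.2% of all promoters, with no match in that of Cyp1a2. Neither TTATGTAA, bound by PAR bZIP factors such as DBP, nor a core of the CTCF site (CC, any 3 bases, AG, any 2 bases, GGC) matched in the runs of these 9 genes, against 0.819% and 7.17% of all promoters. A match is a description of letters only.

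Of the 10 genes 1 was called, and the lack of a call does not show that a gene was unchanged. Cyp3a13 rose, by 1.5-fold, and the other 9 did not pass an edgeR adjusted p of 0.05, against 30.1% of all tested genes that passed, 15.2% higher and 14.9% lower. For 1 of the 10 the groups did not overlap in CPM, against 30.6% of all tested genes (15% with cKO above and 15.6% with cKO below). None of the 10 was lower by edgeR, and the count was also 0 at unadjusted p below 0.05, by DESeq2 and by limma-voom. With a term for replicate number added to edgeR, Cyp1a2 was lower (-0.27, adjusted p = 0.0389) and Cyp3a41a higher (0.95, 0.0388). The labels do not say that samples of the same number belong together.

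**Figure D1:**
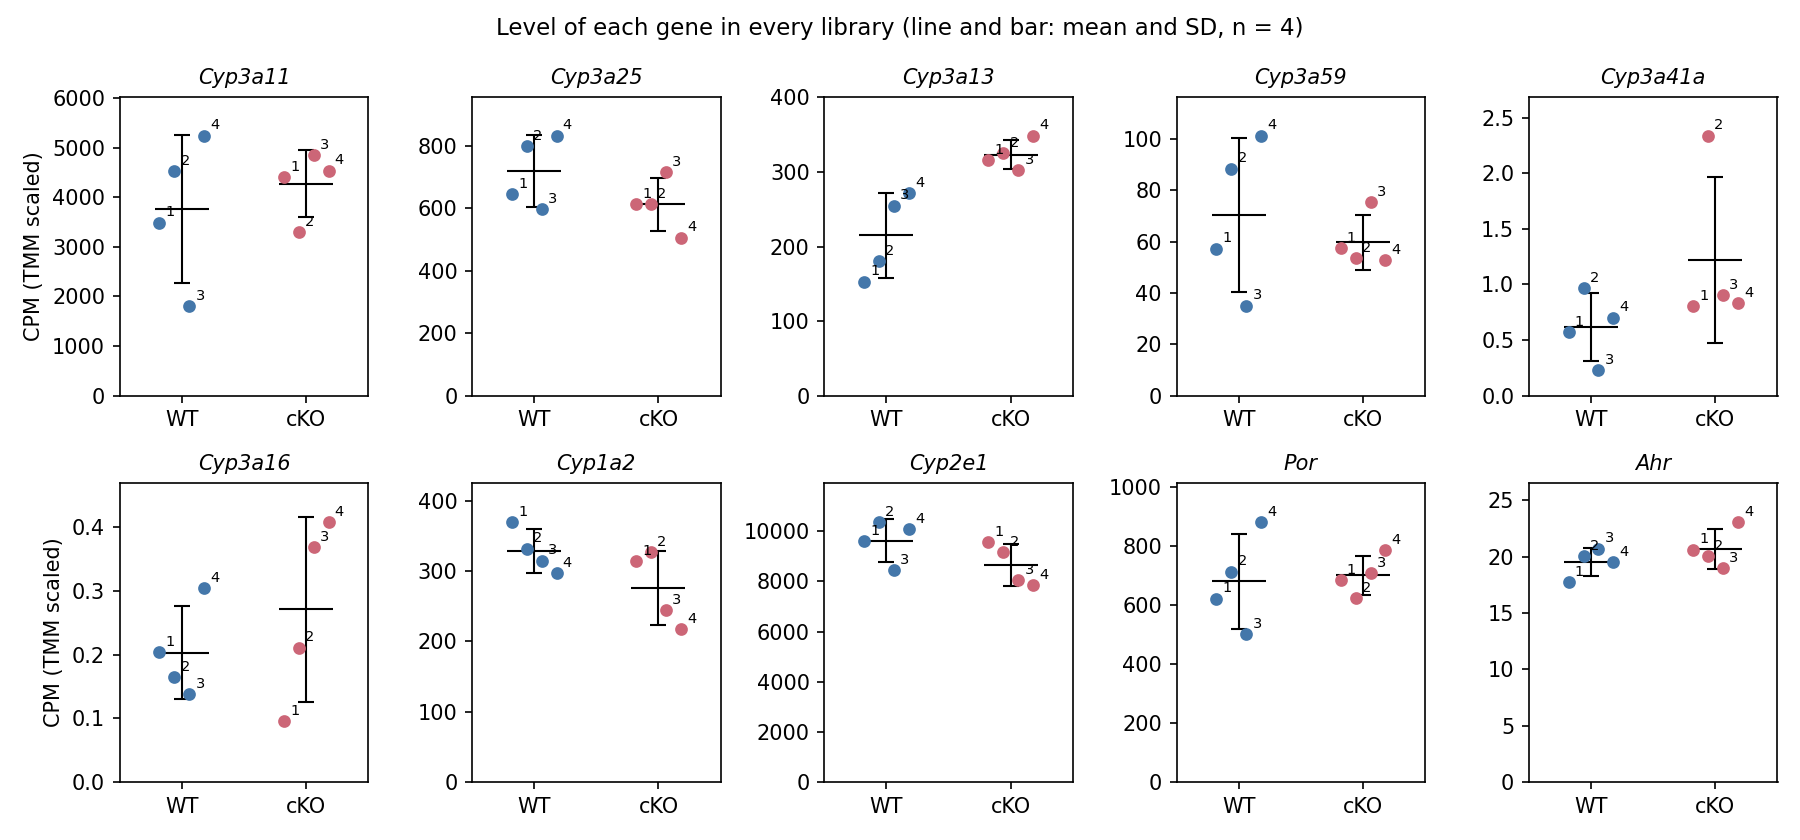
Level in CPM of each of the 10 genes in every library (points, numbered by replicate), with the mean (long line) and SD (bar) of 4 libraries per genotype; each axis starts at 0 and has its own scale. Cyp3a13 is the gene whose cKO libraries, at 302 to 349 CPM, all lie above the WT libraries, at 153 to 272 CPM.

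Cyp3a13, expressed in liver and intestine in mice, had 153, 180, 255 and 272 CPM in WT replicates 1 to 4 and 316, 325, 302 and 349 CPM in cKO replicates 1 to 4. Every cKO library was above every WT library, and the WT libraries were spread further apart than the cKO libraries. The means were 215 ± 57.4 CPM in WT and 323 ± 19.7 CPM in cKO (log2 change 0.59, SE 0.17, 95% interval 0.21 to 0.96, edgeR adjusted p = 0.0265). All 8 of its counts were whole numbers and no 50-base window of its transcript occurred in another gene, so that reads were not divided between it and its paralogs. The call was near the threshold. It was lost without WT replicate 2 (0.51, adjusted p = 0.0631), cKO replicate 2 (0.60, 0.0529) or cKO replicate 4 (0.55, 0.0799), and with no filter (0.61, 0.06), where 26569 genes were tested. In all, 4 of its 19 alternatives ended the call.

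Cyp3a11, the most abundant of the family in mouse liver and a classical target of PXR, did not pass. Its WT libraries had 3491, 4527, 1801 and 5245 CPM and its cKO libraries 4399, 3304, 4848 and 4538 CPM. The WT libraries enclosed all 4 cKO libraries, with WT replicate 3 far below and WT replicate 4 above them. The means were 3766 ± 1495 and 4272 ± 672 CPM (log2 change 0.18, SE 0.31, 95% interval -0.54 to 0.91, edgeR adjusted p = 0.692). Without WT replicate 3 the log2 change was -0.050.

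Cyp3a25, another hepatic member of the cluster, had 644, 798, 597 and 833 CPM in WT and 613, 614, 716 and 506 CPM in cKO. The groups overlapped, although cKO replicate 4 was the lowest of all. Its log2 change was -0.23 (SE 0.13, 95% interval -0.51 to 0.05, edgeR adjusted p = 0.194), and -0.15 without either WT replicate 4 or cKO replicate 4. Its neighbour Cyp3a59, whose upstream sequence is nearly the same, ranged from 35.03 to 101 CPM in WT and from 52.7 to 75.5 CPM in cKO, the cKO range lying inside the WT range (log2 change -0.24, SE 0.33, 95% interval -1.03 to 0.56, edgeR adjusted p = 0.63). Leaving out a library moved it between -0.46 without WT replicate 3 and -0.01 without WT replicate 4, and limma on log2(TPM + 1) turned it to 0.040. Of the 50-base windows of their transcripts, 25.5% for Cyp3a25 and 28.3% for Cyp3a59 also occurred in another gene, mostly each other, and none of their counts was whole in any library, so the division of reads between them is uncertain.

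Cyp3a41a and Cyp3a16, known in mice as genes of female liver and, for Cyp3a16, of fetal liver, were close to silent. The sex of the mice is not given in the labels. Cyp3a41a had 0.571, 0.967, 0.229 and 0.702 CPM in WT and 0.804, 2.34, 0.905 and 0.835 CPM in cKO, where cKO replicate 2 stood far above the other 7 libraries. Its log2 change was 0.98 (SE 0.46, 95% interval -0.05 to 2.01, edgeR adjusted p = 0.138), and 0.47 without cKO replicate 2. Nearly all of its 50-base windows (98.6%) occurred in other genes, mainly in Cyp3a41b, which is listed at 0 in all 8 libraries. The highest expected count of Cyp3a16 in a library was 24.21. It ranged from 0.137 to 0.304 CPM in WT and from 0.0957 to 0.409 CPM in cKO (log2 change 0.43, SE 0.45, 95% interval -0.55 to 1.40, edgeR adjusted p = 0.495), and leaving out 1 library moved it from 0.16 without cKO replicate 4 to 0.70 without cKO replicate 1. The other female-biased gene of the cluster, Cyp3a44, had 0.0458 to 0.212 CPM in WT and 0.166 to 0.290 CPM in cKO and was too low to be tested.

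Summed over all 10 Cyp3a genes in the files, the family took 0.258% to 0.618% of counts in WT and 0.44% to 0.631% in cKO. The sum was 4346, 5594, 2688 and 6452 CPM in WT and 5386, 4299, 5943 and 5447 CPM in cKO. WT libraries were both the lowest and the highest, and the means of 4770 ± 1636 and 5269 ± 693 CPM did not differ beyond that spread (log2 ratio 0.14, exact two-sided permutation test over 70 assignments, p = 0.657, smallest possible p 0.0286). Without WT replicate 3 the ratio was -0.054.

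In TPM, the deposited abundance per transcript length, Cyp3a11 made up 74.8 ± 7.23% of the family in WT and 79.5 ± 2.97% in cKO, and Cyp3a25 19.7 ± 5.25% and 14.3 ± 2.43%. Cyp3a13 held 2.65, 2.43, 7.06 and 3.19% in WT and 4.50, 5.79, 3.88 and 4.95% in cKO. Its share overlapped between the groups through WT replicate 3 alone, the library with the least Cyp3a11. Without that library the share was 2.02 percentage points higher in cKO, and with it 0.943 points. Cyp3a59 held 1.499 to 1.83% in WT and 1.149 to 1.494% in cKO, with no overlap. None of these 4 shares passed exact two-sided permutation tests adjusted over the 4 (adjusted p = 0.114 for Cyp3a59 and Cyp3a25, 0.381 for Cyp3a11 and 0.457 for Cyp3a13). Cyp3a59 was at the smallest p that this permutation test can give (p = 0.0286). With only that share at this p, adjustment over the 4 could not bring it under 0.05, so the adjusted test could not decide for Cyp3a59.

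**Figure D2:**
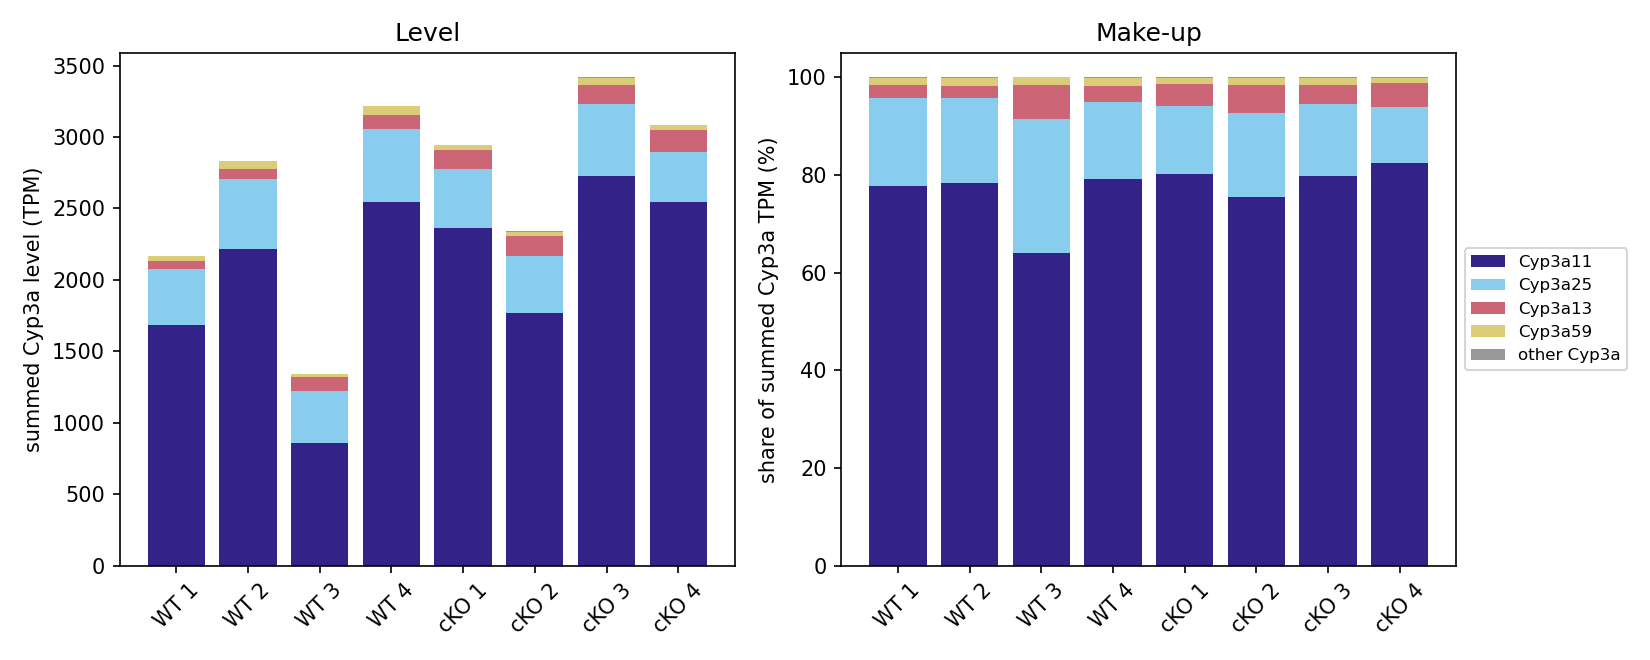
Summed level of all Cyp3a genes in TPM (left) and the share of each gene in that sum in percent (right), by library, as stacked bars from 0. Cyp3a11 holds 64.0% in WT replicate 3 and 75.4% or more in each of the other 7 libraries.

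Cyp2e1 (chr7:140763819-140774990), which oxidizes ethanol and paracetamol in hepatocytes around the central vein, was the most abundant of the 10 genes. Its level was 9602, 10380, 8457 and 10080 CPM in the WT libraries and 9573, 9159, 8066 and 7844 CPM in cKO. The groups overlapped, with 2 cKO libraries below the lowest WT library. The log2 change was -0.15 (SE 0.10, 95% interval -0.37 to 0.06, edgeR adjusted p = 0.263). In TPM the means were 6192 ± 603 in WT and 6278 ± 447 in cKO, and limma on log2(TPM + 1) gave 0.023.

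Cyp1a2 (chr9:57676937-57683655), the constitutive hepatic Cyp1a enzyme, which demethylates caffeine, had 370, 332, 315 and 297 CPM in WT and 314, 327, 244 and 218 CPM in cKO. Replicates 3 and 4 of cKO were below every WT library and replicates 1 and 2 within the WT range. Its log2 change was -0.25 (SE 0.13, 95% interval -0.53 to 0.03, edgeR adjusted p = 0.158), -0.15 without cKO replicate 4 and -0.33 without cKO replicate 2. The inducible paralog Cyp1a1, 4.27 kb away, did not pass, with means of 0.718 ± 0.201 CPM in WT and 1.05 ± 0.38 CPM in cKO (log2 change 0.55 with an edgeR adjusted p of 0.167, and 0.26 without cKO replicate 4).

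Por (chr5:135670040-135735326), the reductase gene, had 623, 714, 503 and 884 CPM in WT and 686, 623, 710 and 786 CPM in cKO. As for Cyp3a11, WT replicates 3 and 4 were the lowest and the highest of all 8 libraries. Its log2 change was 0.04 (SE 0.15, 95% interval -0.29 to 0.38, edgeR adjusted p = 0.855), and it was -0.079 without WT replicate 3 and -0.016 without cKO replicate 4. A lncRNA, Gm40345, and a pseudogene, Gm16061, overlap Por in RefSeq, so that some of its reads could be theirs. Ahr (chr12:35497979-35534989) was low, at 17.8, 20.1, 20.7 and 19.5 CPM in WT and 20.6, 20.0, 19.0 and 23.1 CPM in cKO. Its groups overlapped, and the log2 change was 0.08 (SE 0.08, 95% interval -0.09 to 0.26, edgeR adjusted p = 0.453), the narrowest interval of the 10 genes. Without cKO replicate 4 the change was 0.027, without WT replicate 1 0.040 and without cKO replicate 3 0.13.

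**Figure D3:**
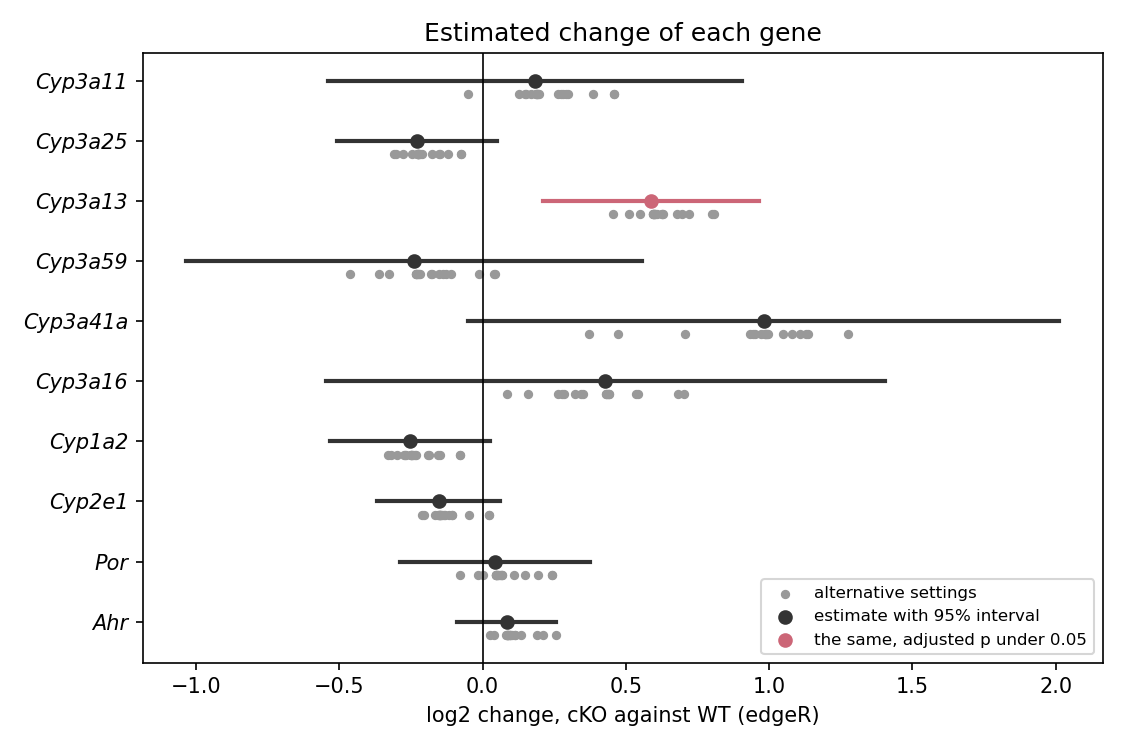
Log2 change of each gene in cKO against WT from edgeR (large points) with its 95% interval (lines), and the estimates under up to 19 alternative settings (small grey points). The interval of Cyp3a13 (0.21 to 0.96) lies above 0, and those of the other 9 genes include 0.

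The order of levels per length was the same in both genotypes. By mean TPM it ran Cyp2e1, Cyp3a11, Cyp3a25, Por, Cyp1a2, Cyp3a13, Cyp3a59, Ahr, Cyp3a41a, Cyp3a16, from 6192 to 0.138 TPM in WT and from 6278 to 0.21 TPM in cKO. Cyp2e1 was the 26th most abundant of all genes in WT and the 23rd in cKO, and Cyp3a13 moved from place 1107 to place 760. In WT the libraries of Cyp3a25 and Por, of Cyp3a13 and Cyp3a59, and of Cyp3a41a and Cyp3a16 overlapped, so that these neighbours in the order were not separated. In cKO this held for Cyp3a25 and Por only.

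Between WT libraries the SD was 39.7% of the mean for Cyp3a11, 26.7% for Cyp3a13, 23.6% for Por and 42.6% for Cyp3a59. In cKO the same 4 genes had 15.7%, 6.09%, 9.61% and 17.8%. The median over the 1202 tested genes that averaged 100 CPM or more, a class not matched to the level of each gene and above that of Cyp3a59, was 8.30% in WT and 7.56% in cKO. Cyp2e1, Cyp1a2 and Ahr had 8.77%, 9.47% and 6.47% in WT and larger values of 9.66%, 19.3% and 8.44% in cKO. The low genes Cyp3a16 and Cyp3a41a also had more spread in cKO, at 53.4% and 61.2% against 36.01% and 49.7% in WT. Cyp3a25 had less spread in cKO, as did the first 4 genes, so the direction was not shared by all 10 genes. WT replicate 3 was the lowest WT library for 7 of the 10 genes and WT replicate 4 the highest for 6. The difference in spread between the genotypes was not tested.

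Gene lengths in the files are means over isoforms weighted by abundance, so that they move with the isoforms to which reads were assigned. For Cyp3a25 the length was 1892, 1905, 1852 and 1894 bases in WT and 1918, 1936, 1911 and 1935 bases in cKO, every cKO value above every WT value. For Cyp2e1 it was 1804 to 1811 bases in WT and 1815 to 1816 bases in cKO, also without overlap, a difference of 8.33 bases. Both had the smallest p that an exact two-sided permutation test can give here (p = 0.0286), and neither passed after adjustment over the 7 genes whose length varied (adjusted p = 0.1 for each). With only these genes at that p, the adjustment could not bring them under 0.05, so the adjusted test could not decide for them. Cyp3a11, Cyp3a59, Cyp1a2, Por and Ahr overlapped between genotypes.

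Genes of proteins that serve P450 enzymes were called in both directions. Of 9 tested electron partners other than Por, 1 was higher and 3 lower (median log2 change -0.12, against -0.01 over all tested genes). Cyb5r4, a reductase of the cytochrome b5 family, rose by log2 0.42, and Cyb5r3, the NADH reductase of cytochrome b5, fell by 0.32. The mitochondrial electron carriers Fdx1 and Fdxr fell by 0.24 and 0.43. The call of Fdxr was lost without any 1 of WT replicates 1, 3 and 4 and cKO replicate 4 (adjusted p 0.0541 to 0.0838). Of 13 genes of heme synthesis and breakdown, which provide and degrade the prosthetic group of P450s, 6 were lower and 1 higher (median -0.06). Ppox, which makes protoporphyrin, fell from 43.1 ± 5.98 to 27.8 ± 2.49 CPM, the glycine carrier Slc25a38 had a log2 change of -0.51 and Alad of -0.42, while Cpox rose by 0.34. The balance of calls turned with the scaling for the electron partners. For the heme genes fewer were lower, and the median changed sign. With library size alone 3 electron partners were higher and 1 lower (median -0.01), and with limma on log2(TPM + 1) 3 were higher and 0 lower (median 0.06). For the heme genes the same settings gave 1 higher and 3 lower (median 0.05) and 1 higher and 1 lower (median 0.14). Library size alone ended the calls of Fdx1 and Fdxr (adjusted p 0.119 and 0.072), limma on log2(TPM + 1) those of Cyb5r3, Fdx1, Fdxr, Ppox and Alad (0.0672 to 0.574), and an offset for effective length that of Cyb5r4 (0.076).

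On the side of AHR, neither Ahr nor its partner Arnt passed (Arnt 20.8 CPM in WT and 21.0 CPM in cKO, log2 change 0.01, SE 0.06, edgeR adjusted p = 0.894). Of 6 tested genes of its complex and feedback 2 were higher. The chaperone Hsp90ab1 had a log2 change of 0.40 and the co-chaperone Ptges3 of 0.34. Leaving out WT replicate 2 or cKO replicate 4 ended the call of Hsp90ab1 (adjusted p 0.056 to 0.0568), and leaving out any library but WT replicate 4 that of Ptges3 (0.0782 to 0.128). Of 7 tested AHR target genes other than Cyp1a2, 3 were higher and 1 lower (median 0.42). Gsta1, a glutathione transferase, rose by log2 3.01 (SE 0.21) from 0.808 ± 0.186 to 6.52 ± 1.63 CPM, with an edgeR adjusted p of 8.13e-06, and Cyp1b1, a P450 found mostly outside hepatocytes, from 0.642 ± 0.139 to 1.47 ± 0.24 CPM. The quinone reductase Nqo1 had 0.42 and the glucuronosyltransferase Ugt1a6a -0.39, calls that were lost for Nqo1 without any 1 of WT replicates 2 and 3 and cKO replicates 3 and 4 (adjusted p 0.052 to 0.0661), and for Ugt1a6a without any 1 library but WT replicate 2 (0.0625 to 0.0866). Tiparp, an AHR-induced feedback gene, had 3.42 and 3.51 CPM (log2 change 0.04, edgeR adjusted p = 0.881).

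On the side of CAR and PXR, the gene of CAR itself was lower. Nr1i3, also a pericentral gene, had 1421, 1555, 1262 and 877 CPM in WT and 740, 569, 690 and 694 CPM in cKO, every cKO library below every WT library (log2 change -0.93, SE 0.16, edgeR adjusted p = 0.00248). Nr1i2, which encodes PXR, averaged 86.0 CPM in WT and 74.1 CPM in cKO, a log2 change of -0.22 that did not pass (adjusted p of 0.175 by edgeR), although it did without WT replicate 1 (-0.32, 0.0264), and the change was -0.11 (0.413) without WT replicate 4. Of 14 tested receptors and partners 1 was higher and 2 lower: besides Nr1i3, the glucocorticoid receptor gene Nr3c1 had 0.25 and Hnf4a -0.25. The call of Nr3c1 was lost without any 1 of WT replicates 1 to 3 and cKO replicates 2 to 4 (adjusted p 0.0706 to 0.11), and that of Hnf4a without any 1 library but WT replicate 1 (0.0505 to 0.111), 14 of its 19 alternatives in all ending it.

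Targets of CAR and PXR other than the Cyp3a genes rose in part. Of 22 tested, 6 were higher and 1 lower (median 0.13), where 15.2% of all tested genes were higher. Cyp2b10, used as the readout of CAR activity, had 4.94, 1.86, 5.25 and 2.69 CPM in WT and 18.8, 17.2, 41.0 and 37.0 CPM in cKO. All 4 cKO libraries were above the WT libraries (log2 change 2.95, SE 0.47, edgeR adjusted p = 0.00526). The drug efflux transporter Abcb1a rose from 0.771 ± 0.228 to 3.58 ± 0.97 CPM, and Gstm3 and Cyp2c55 had log2 changes of 1.69 and 0.96. Cyp2c29 fell by 0.37. The call of Cyp2c29 was lost with limma on log2(TPM + 1) (adjusted p of 0.111).

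**Figure D4:**
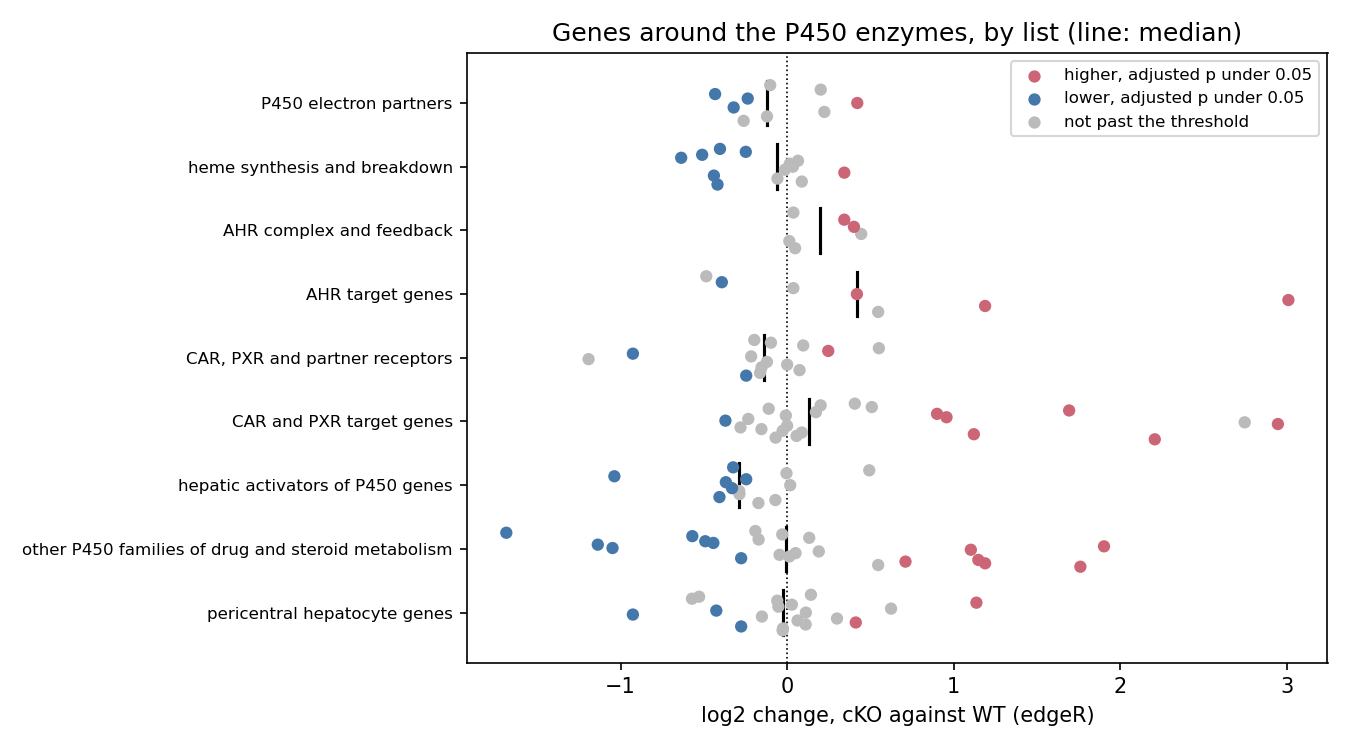
Log2 change in cKO against WT (edgeR) of the genes around the P450 enzymes, 1 point per tested gene and 1 row per list, with the median as a vertical line. Colours mark genes at an adjusted p under 0.05; the 10 genes are left out of the lists.

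Factors known to drive P450 genes in hepatocytes were lower or did not pass. Of 13 tested, a repressor included, 6 were lower and 7 did not pass (median -0.29). The PAR bZIP factors Dbp and Tef, which follow the circadian clock, fell by log2 0.41 and 0.32. Nfil3, a repressor of the sites those factors bind, fell from 25.2 ± 4.79 to 12.3 ± 3.60 CPM (a log2 change of -1.04 with SE 0.22 and an edgeR adjusted p of 0.0106). Onecut1 and Cebpa had 0.49 and -0.17 and did not pass. With library size alone 4 of the 13 were lower, and with limma on log2(TPM + 1) 1, which ended the calls of Dbp and Tef (adjusted p 0.168 and 0.0902).

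Among other P450 genes changes went both ways. Of 22 tested in families of drug, steroid and bile acid metabolism 6 were higher and 7 lower. Cyp17a1, of steroid synthesis, rose from 14.7 ± 3.40 to 49.7 ± 12.7 CPM (log2 change 1.76) and Cyp20a1 by 0.71, while Cyp2u1 fell by 1.05 and Cyp4f13 by 0.44.

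Cyp2e1 and Cyp1a2 mark pericentral hepatocytes, and other genes of that zone were mostly not past the threshold. Of 19 tested, 2 were higher and 3 lower (median -0.03, and 0.08 with library size alone). Glul, the glutamine synthetase of the innermost pericentral cells, had 618 and 668 CPM (log2 change 0.11, edgeR adjusted p = 0.556), Slc1a4 and Gulo rose by log2 1.14 and 0.41, and Rgn fell by 0.43. Of 15 periportal genes 5 were higher and 2 lower (median 0.09), with Hsd17b13, a lipid droplet enzyme, and Pigr at 0.69 and 0.45 and Hal and Ctsc at -0.51 and -0.46. Limma on log2(TPM + 1) ended the calls of Rgn and Ctsc (adjusted p 0.0665 and 0.0721).

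In whole liver fewer cells of a type and less RNA per cell cannot be told apart. Of 15 tested hepatocyte markers 9 were lower (median -0.35), among them Ambp, Apoa2, Serpina1c and Ttr at -0.63, -0.69, -0.62 and -0.68, and the summed level of the list was 121848 to 151357 CPM in WT and 123400 to 137633 CPM in cKO. Library size alone left 7 of them lower and limma on log2(TPM + 1) 5. Markers of stellate cells and fibroblasts were higher for 13 of 14 (median 1.09), with Lrat, Dcn, Pdgfra and Lum at 1.45, 1.57, 1.63 and 1.89, and a summed level of 144 to 161 CPM in WT and 317 to 423 CPM in cKO. Of 13 Kupffer cell and macrophage markers 3 were higher (Gpnmb 1.90, Marco 0.61 and Trem2 0.76) and 10 did not pass (median -0.05). The summed level of that list was 349 to 530 CPM in WT and 285 to 470 CPM in cKO. Of 7 cholangiocyte markers 3 were higher and 1 lower (Cldn7 1.85, Epcam 1.503, Krt7 1.13 and Spp1 -0.68), with 46.7 to 61.7 CPM summed in WT and 40.9 to 48.9 CPM in cKO. Of 9 lymphocyte markers 3 were higher (Cd8a 2.64, Nkg7 1.12 and Cd3e 1.03), with 8.75 to 13.8 CPM summed in WT and 12.5 to 16.9 CPM in cKO. The calls of Trem2 and Cd3e were ended by leaving out any library but WT replicate 4 or cKO replicate 3 for Trem2 (adjusted p 0.0584 to 0.0954) and but WT replicate 2 for Cd3e (0.055 to 0.0917). Of 10 sinusoidal endothelial markers none passed by edgeR, while 1 was higher at unadjusted p below 0.05, by DESeq2 and by limma-voom, and their summed level was 171 to 329 CPM in WT and 235 to 356 CPM in cKO. None of the listed marker genes was at 0 in all 8 libraries. The part of these markers in the rise of Cyp3a13 was not tested.

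Genes around the 10 were called in both directions. The 3 nearest protein-coding genes on each side of the Cyp3a cluster and of the 5 other loci were 36 genes, of which 21 were tested, 3 higher and 4 lower (median -0.09), a share near the 30.1% called over all tested genes. Beside Cyp3a13 the gap junction gene Gjc3, 25.4 kb away, had 3.32, 3.73, 4.70 and 3.39 CPM in WT and 1.26, 1.76, 1.27 and 1.04 CPM in cKO, the opposite direction to Cyp3a13 and without overlap (log2 change -1.504, SE 0.19, edgeR adjusted p = 0.000235). Azgp1, a secreted glycoprotein gene 55.9 kb from Cyp3a13, fell by 0.33, while Pilrb2, Pilrb1 and Pilra on its other side did not pass. Next to the Cyp3a cluster the tested genes Zscan25, Zfp655 and Zkscan5 did not pass (log2 changes -0.35, 0.06 and -0.03). Clk3 near Cyp1a2 fell by 0.42 and Urah near Cyp2e1 by 0.28. Tmem120a, 0.164 kb from Por, rose from 83.6 ± 12.5 to 108 ± 6.37 CPM, Mdh2 near Por had 0.23 and Snx13 near Ahr 0.32. The call of Mdh2 was lost without any 1 of WT replicates 2 and 3 and cKO replicates 1, 2 and 4 (adjusted p 0.0532 to 0.0881), and those of Azgp1, Clk3 and Urah with limma on log2(TPM + 1) (0.0962 to 0.323).

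The genes whose pattern over the 8 libraries was most like that of Cyp3a13 were Il13ra1, a cytokine receptor subunit, Naa30, an acetyltransferase subunit, and Steap4, a metalloreductase. The root mean square difference of centred log2 CPM was 0.11, 0.13 and 0.14, counting genes that averaged 5 CPM or more. Their log2 changes were 0.62, 0.47 and 0.49, a likeness to Cyp3a13 that the choice of genes fixed and that is given as a description.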

How the data were processed

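RNA of whole liver was taken with Trizol and made into libraries with an Illumina TruSeq RNA kit, per the labels' protocols. The submitters' processing notes name STAR 2.5.1, RSEM and mm10. RSEM's version, gene annotation and strandedness were not given in the sources used here. Per gene, the authors deposited RSEM expected counts, in which a read matching several genes is split among them, TPM, and gene and effective lengths in bases. The authors also deposited FPKM values, which were left aside. Splitting of reads makes near-identical Cyp3a genes uncertain.

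Expected counts were rounded, filtered with filterByExpr (minimum count 10, minimum total 15) and fitted with edgeR 4.0.16 in R 4.3.3 (TMM, robust glmQLFit, glmQLFTest, Benjamini-Hochberg over 15562 genes, threshold 0.05). SEs and 95% intervals were derived from the F statistic. For single values all 70 assignments were enumerated in exact two-sided permutation tests. Libraries of a genotype differed beyond sampling noise (chi-square over degrees of freedom at least 26.1). The fit was tested on simulated data. Alternatives were other factors and filters, DESeq2 1.42.0, limma 3.58.1 (voom and log2 TPM), an effective length offset, a replicate block, a threshold of 0.01 and leaving out each library. The 10 genes and all lists were chosen with earlier results of these data known. Named genes were the 10, Ctcf, up to 4 passing genes per list with the smallest p and the first passing gene of the other direction, neighbouring genes, the 3 genes most like a called member, and genes whose role a sentence needs. Shared windows were searched in GENCODE M1 protein-coding transcripts. Alignments used Biopython 1.88 and figures matplotlib 3.10.9.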

Additional observations from a re-analysis of the deposited data

Results flagged for a closer look

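In 11 of 186 groups of 4 libraries, 1 library stood far from the other 3 by Dixon's test, where chance gives about 1 in 20. Cyp3a41a had 2.34 CPM in cKO replicate 2 and 0.804 to 0.905 CPM in the other cKO libraries. The share of Cyp3a11 in Cyp3a TPM was 64.0% in WT replicate 3 and 77.7% to 79.1% in the other WT libraries, and that of Cyp3a13 was 7.06% there and 2.43% to 3.19% in the others. The weighted gene length of Cyp1a2 was 1880 bases in cKO replicate 3 and 1893 to 1895 bases in the other cKO libraries. Among other genes, Gsta1 had 8.96 CPM in cKO replicate 3 (others 5.62 to 5.89). Cyp20a1 had 9.13 CPM (7.18 to 7.34) and Tmem120a 118 CPM (105 to 106) in cKO replicate 4. Ttr had 6220 CPM (7904 to 8197) and Marco 9.69 CPM (5.83 to 6.14) in WT replicate 4. Cldn7 had 1.145 CPM in cKO replicate 3 (1.38 to 1.42) and Nkg7 0.670 CPM in cKO replicate 1 (1.46 to 1.48).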

How the results depend on the processing

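Over all genes, 2367 were higher and 2322 lower. The counts were 1165 and 1050 at an adjusted p under 0.01, 3603 and 1318 with library size alone, 3848 and 875 with limma on log2(TPM + 1), and 3847 and 878 on log2(TPM + 0.1). Without 1 library they ran from 1739 to 2540 higher and from 1624 to 2486 lower. Library size alone moved the median gene by 0.11 on the log2 scale and the TPM fits by 0.15 and 0.17, and the share of calls that were higher was 73.2%, 81.5% and 81.4% there. Of the 10 genes 1 was higher and 0 lower; the threshold of 0.01 and no filter gave 0 higher, and leaving out a library 0 to 1 higher and 0 lower. The replicate block gave 2 higher and 1 lower: Cyp3a41a (0.95, adjusted p = 0.0388) and Cyp1a2 (-0.27, 0.0389) passed with Cyp3a13. Same-numbered libraries deviated together weakly (correlations of 0.0417 to 0.0567), and 3 of 4 WT libraries were most like the cKO library of their own number. WT replicate 4 was most like cKO replicate 2 (0.0921), a correlation above every same-numbered one. A pairing by number is thus a weak hint from the data only.

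Direction turned for Cyp3a11 without WT replicate 3 (-0.050; range without 1 library -0.050 to 0.385), for Por without WT replicate 3 (-0.079) or cKO replicate 4 (-0.016; range -0.079 to 0.194), for Cyp3a59 and Cyp2e1 with limma on log2(TPM + 1) and log2(TPM + 0.1) (0.040 and 0.043, and 0.023 and 0.023) and for the summed Cyp3a count without WT replicate 3 (-0.054; range -0.054 to 0.324). None of these was past the threshold, and the cause was not tested. Without 1 library, cKO minus WT in gene length ran from -1.20 to 1.73 bases for Cyp3a59 (-1.20 without WT replicate 3, -0.098 without cKO replicate 2), from -20.5 (without cKO replicate 3) to 83.0 for Ahr, from 28.1 to 45.8 for Cyp3a25 and from 7.24 to 9.43 for Cyp2e1. Shares of Cyp3a TPM ran from 1.14 to 6.18 points for Cyp3a11, 0.474 to 2.02 for Cyp3a13, -6.65 to -2.79 for Cyp3a25 and -0.39 to -0.27 for Cyp3a59.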
